A study of Mus musculus with 4 samples.

Results

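The proteasome is the protease complex that degrades ubiquitin-tagged proteins. The genes described here are its subunits, the proteins that switch it on or off, and the factors that help to build it. They were taken as the protein-coding genes of the deposited table whose symbol starts with Psm, a letter from a to g and a number, which gave 50 of the 55573 genes listed. By role, 14 encode the 20S core, 17 the 19S regulatory particle, 3 the immunoproteasome, 6 an activator or inhibitor, 7 an assembly factor and 2 a tissue-restricted core subunit. The last, Psmc3ip, matched by name only, since it encodes a recombination protein named for binding Psmc3.

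The libraries were made from primary myoblasts, which are cultured muscle precursor cells, obtained from the hind limbs of 3-week-old mice and collected on day 2 of proliferation. All cultures were grown in the same medium with serum and FGF. Of the 4 libraries, 2 are labelled wild type (WT) and 2 are labelled eIF5A-KO (KO). Eif5a encodes a translation factor that carries hypusine, a residue made from the polyamine spermidine. Per the study, Eif5a carries loxP sites and is deleted by a tamoxifen-inducible Cre driven from the Pax7 locus, so that only cells that have expressed Pax7 (satellite cells, the muscle stem cells, and their descendants) can lose it. The floxed mice were on a C57BL/6j background. The sources differ on whether the WT mice carried the Cre or the floxed alleles, and no label says that the libraries came from separate animals. P-values therefore measure the spread between these libraries, which may be technical. Polysome-Seq is the assay in the sample titles, and the protocol is that of ribosome profiling, in which RNase I digests the RNA that ribosomes do not cover and the remaining footprints are sequenced.

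The 20S core is a barrel of 4 stacked rings. The outer rings consist of the alpha subunits (Psma genes), which gate the entry, and the inner rings of the beta subunits (Psmb genes), of which Psmb5, Psmb6 and Psmb7 carry the proteolytic sites. The 19S regulatory particle caps the barrel. Its base holds the ATPases that unfold the substrate (Psmc genes), and its lid holds Psmd14, the enzyme that removes ubiquitin. Immune cells and cells exposed to interferon replace the catalytic subunits by Psmb8, Psmb9 and Psmb10. In muscle the proteasome carries out much of the breakdown of myofibrillar protein during wasting. Some members hold stretches of consecutive prolines, at which ribosomes are known to slow and where eIF5A is known to help.

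Each library held between 642429 and 704006 reads, recovered as whole reads from the deposited RPKM values (read counts divided by the gene's length in kilobases and by a library size). Protein-coding genes received 269143 and 217651 reads in the WT libraries and 460099 and 385091 in those labelled KO. Eif5a itself was read at 34.9 and 65.2 RPKM in WT1 and WT2 and at 60.3 and 59.4 RPKM in KO1 and KO2, so the targeted gene was not lower in the libraries labelled KO. On the log2 scale the difference was 0.32 (standard error 0.48, adjusted p = 0.839, limma), and the direction of every difference below is that of the libraries labelled KO. The study checked the deletion in satellite cells by RT-qPCR and immunostaining and reported it as successful. A read total over the whole gene does not show whether the part between the loxP sites was read. WT1 stood apart from WT2: Myog, a factor of muscle differentiation, was at 91.0 RPKM in WT1 and at 4.26 in WT2, against 0.74 and 1.66 in KO1 and KO2. The 8 myoblast markers examined summed to 316 and 189 RPKM in WT1 and WT2 and to 68.7 and 112 RPKM in KO1 and KO2. Myf6 was below the test's minimum, all 7 tested myoblast markers had a log2 fold change below 0, and 5 of these were lower at an unadjusted p under 0.05, against 3.04% of the tested protein-coding genes. The 9 fibroblast markers summed to 469 and 273 RPKM in WT and to 785 and 351 in KO, and the 7 endothelial markers to 216 and 327 in WT and to 309 and 394 in KO. Above 0 were 7 of the 9 fibroblast and 6 of the 7 endothelial markers, against 53.1% of the tested protein-coding genes. Of these markers, Postn (1.39, unadjusted p = 0.0168, limma) and Kdr (1.01, unadjusted p = 0.0376, limma) were higher at an unadjusted p under 0.05, against 2.94% of those genes. The 11 immune markers summed to between 54.4 and 81.4 RPKM in the 4 libraries, with Itgam at 0 in all and Ptprc at 0 in WT2 and KO2, but Cd14 between 17.2 and 31.8 RPKM and Cd68 between 14.8 and 23.6 RPKM. Of the 7 tested, Adgre1 was higher (log2 fold change 1.33, unadjusted p = 0.0387, limma) and Lyz2 lower (-1.16, unadjusted p = 0.0216, limma). Among the tested protein-coding genes, 2.94% were higher and 3.04% lower at an unadjusted p under 0.05. Fewer cells of a type and less RNA per cell cannot be told apart in bulk samples, and the part of these markers in the values below was not tested.

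Proteasome genes as a whole took a larger share of the reads in both libraries labelled KO than in either WT library, but WT1 and WT2 differed among themselves by about as much as the groups did. The 50 genes took 0.485% of the protein-coding reads in WT1 (95% Wilson interval 0.46% to 0.512%) and 0.721% in WT2 (0.687% to 0.758%). In KO1 the share was 0.756% (0.731% to 0.781%) and in KO2 it was 0.916% (0.886% to 0.946%). The intervals describe counting error alone, and they may be too narrow for it, as PCR copies of a molecule are not independent. Both KO libraries thus lay above both WT libraries, with WT2 and KO1 close together and their intervals overlapping. The mean share was 0.603% ± 0.167 (SD, n = 2) in WT and 0.836% ± 0.113 (SD, n = 2) in KO, a ratio of 1.39. Over all reads, of which protein-coding genes took 41.5% and 33.9% in WT and 65.4% and 59.2% in KO, the ratio was 2.32. The exact permutation test (two-sided) had p = 0.333, the smallest value that 2 against 2 libraries allow. Without WT1 the ratio was 1.16, and without WT2 it was 1.72.

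**Figure D1:**
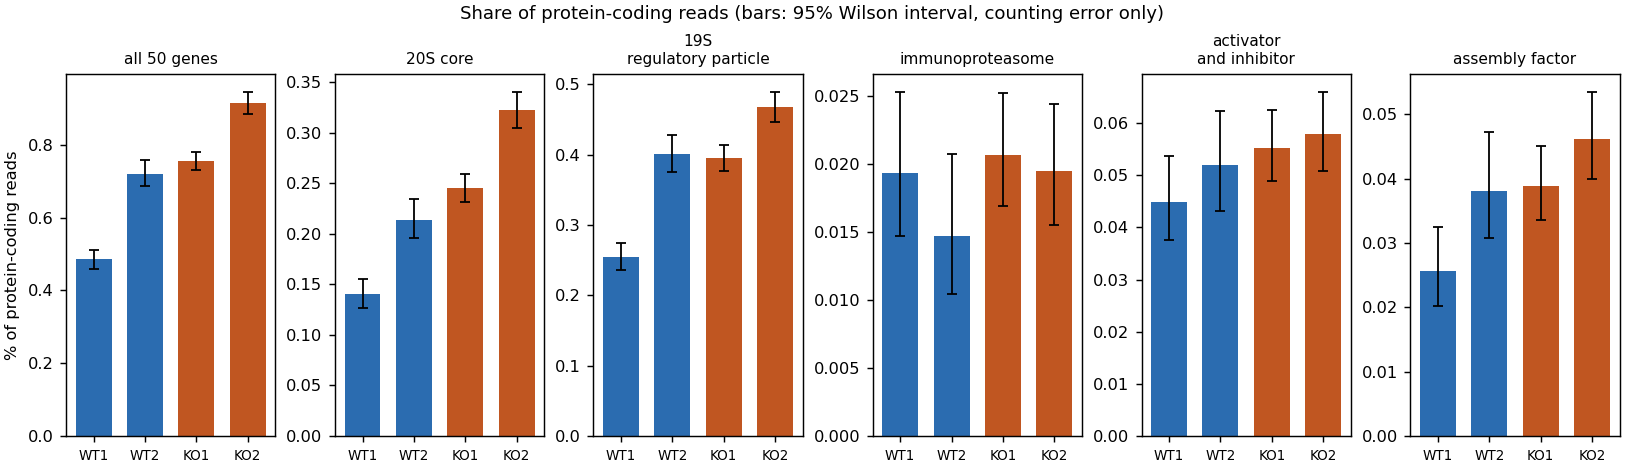
Share of the protein-coding reads (%, from 0) that fell on all 50 genes and on each of 5 classes, with 1 bar per library (WT blue, KO orange) and the 95% Wilson interval for counting error. WT1 is the lowest library for all genes together (0.485%) and KO2 the highest (0.916%), and the immunoproteasome shares have overlapping intervals in all 4 libraries.

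By class, the core took 0.14% and 0.214% of the protein-coding reads in WT1 and WT2 against 0.245% and 0.322% in KO1 and KO2. The regulatory particle took 0.255% and 0.401% in WT against 0.395% and 0.468% in KO, so that KO1 lay below WT2. For the core the exact permutation p was again 0.333, and for the regulatory particle it was 0.667. Assembly factors took 0.0256% and 0.0381% in WT and 0.0389% and 0.0462% in KO. The immunoproteasome genes took 0.0193% and 0.0147% in WT and 0.0206% and 0.0195% in KO.

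Gene by gene, 47 of the 50 reached the minimum of 1 RPKM on average and were tested with limma on log2(RPKM + 1). This scale understates the change of weakly read genes. None of the 47 had an adjusted p under 0.05 by limma, the smallest being 0.549. Over all 11363 tested genes, 0.0968% were called lower and 0.0088% higher at that threshold. At an unadjusted p under 0.05, 6 members were higher in KO and 0 were lower. Over all tested genes the shares were 2.86% higher and 4.46% lower, and over the 9877 protein-coding genes tested they were 2.94% higher and 3.04% lower. Limma-voom on the recovered reads gave 9 members higher, 0 lower and again 0 at an adjusted p under 0.05, with 3.74% of all tested genes higher at the unadjusted threshold in that fit.

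The log2 fold change was above 0 for 43 of the 47 members, against 50% of all tested genes and 53.1% of the tested protein-coding genes. Their median log2 fold change was 0.65, beside 0.05 for the protein-coding genes. With the libraries set to the same read total over all genes, 47 of 47 were above 0 and 28 were higher at an unadjusted p under 0.05, while the median of all tested genes moved to 0.47 and 14.8% of them were higher at that threshold. Both KO libraries lay above both WT libraries for 27 members (57.4%), whereas 20.1% of all tested genes and 22.4% of the protein-coding ones did so. The reverse, with both KO libraries lowest, was seen for 1 member, Psme4, against 20.3% of all tested genes and 19.3% of protein-coding genes.

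WT1 was the lowest of the 4 libraries for 35 of the 47 members, a larger share than the 3187 of the 9877 tested protein-coding genes. WT2 was higher than WT1 for 38 members (80.9%), against 49.4% of the tested protein-coding genes. The members had a median difference of 0.70 between WT2 and WT1 on the log2(RPKM + 1) scale. This is as large as the median difference between KO and WT. Over all tested protein-coding genes the median of WT2 minus WT1 was -0.01. Between KO2 and KO1 the members had a median difference of 0.17. Without WT1 the median log2 fold change of the members was 0.31, with 36 of 47 above 0 and 2 higher at an unadjusted p under 0.05, against 3.93% of all tested genes in that fit. Without WT2 it was 0.99, with 20 members at that threshold, against 7.12% of all tested genes. Without KO1 or KO2, 1 and 0 members passed it, against 1.80% and 2.36%. The number of single genes past the unadjusted threshold thus rested on which library was used.

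**Figure D2:**
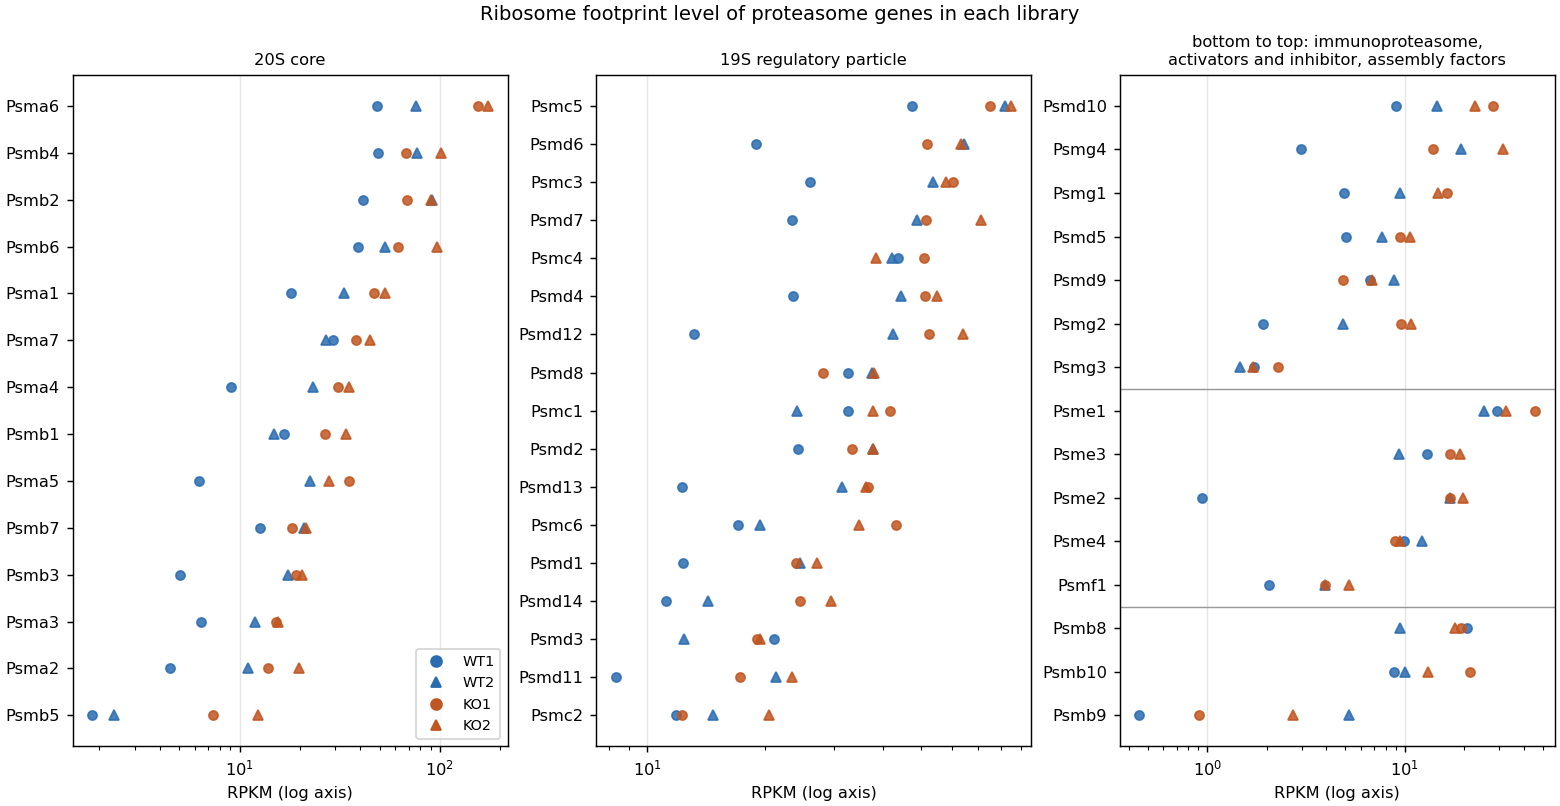
RPKM (log axis) of the 46 tested genes other than Psmc3ip in each library, sorted by mean level within a class; WT blue, KO orange, replicate 1 as circles and replicate 2 as triangles. For most genes the WT1 circle is the lowest point, while WT2 often lies among or next to the KO points; Psma6, Psmb5, Psmc6 and Psmd14 have both KO points clear of both WT points.

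All 14 core genes were tested, and all had a log2 fold change above 0, from 0.26 for Psmb7 to 1.77 for Psmb5, with a median of 0.94. Without WT1 the median was 0.51, and 12 of the 14 were above 0. Both KO libraries lay above both WT libraries in 11 of the 14, against 22.4% of the tested protein-coding genes. The 7 alpha genes had a median of 1.11, and their groups did not overlap in any of the 7. The 7 beta genes had a median of 0.75, with 4 not overlapping.

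Psma6, an alpha-ring subunit (ENSMUSG00000021024; GRCm38 chromosome 12, 55384222 to 55418454, plus strand, 7 exons), had the highest mean RPKM of the core. It was read at 48.4 and 75.7 RPKM in WT1 and WT2 and at 155 and 174 RPKM in KO1 and KO2. Both KO values were more than 2 times the higher WT value. The groups differed by 1.42 on the log2 scale (standard error 0.48, unadjusted p = 0.0251, adjusted p = 0.665, limma). In reads this was 80 in WT and 346 in KO, a scaled ratio of 2.71 with an exact 95% counting interval of 2.12 to 3.5. It was the best-read member among the 6 with an unadjusted p under 0.05, and the value stayed between 1.10 and 1.74 with any 1 library left out.

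Psmb5 encodes the subunit with the chymotrypsin-like site (ENSMUSG00000022193; GRCm38 chromosome 14, 54614119 to 54618022, minus strand, 3 exons). It had the smallest p of all members and the fewest reads of the core. It was read at 1.85 and 2.36 RPKM in WT1 and WT2 and at 7.36 and 12.4 RPKM in KO1 and KO2. These values stand for 1 and 1 reads in WT and 6 and 9 reads in KO. On the log2 scale the difference was 1.77 (standard error 0.41, unadjusted p = 0.00516, adjusted p = 0.549, limma). The scaled ratio of reads was 4.7, with an exact 95% counting interval of 1.09 to 42.3, and limma-voom on the reads gave an unadjusted p of 0.104. Of the 28-base windows in its coding sequence, 86.7% also occur in transcripts of another gene, and 109 of its coding bases overlap the miRNA gene Mir686 on the same strand. The closest copy, the processed pseudogene Gm3375, held 16 reads over the 4 libraries, against 17 for Psmb5.

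Psmb6, with the caspase-like site (chromosome 11, 70525367 to 70527858, plus strand), was read at 39.0 and 53.3 RPKM in WT and at 61.8 and 96.6 RPKM in KO. Its groups did not overlap, and its log2 fold change was 0.75 (standard error 0.47, unadjusted p = 0.164, limma). Without KO1 the Psmb6 value was 1.07, and without KO2 it was 0.43. Psmb7, with the trypsin-like site (chromosome 2, 38588036 to 38644087, minus strand), was read at 12.6 and 21.1 RPKM in WT and at 18.4 and 21.4 RPKM in KO. Its groups overlapped, its log2 fold change was 0.26 ± 0.43 (standard error), and 261 of its coding bases lie on the strand opposite to exons of Nek6. Without WT1 the Psmb7 value was -0.09.

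The tissue-restricted core genes were barely read. Psma8, known from testis, had 0 reads in all 4 libraries, where a count of 0 allows up to 3 reads in a library. Psmb11, known from thymic epithelium, had 1 read in WT1 and 2 in KO2.

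**Figure D3:**
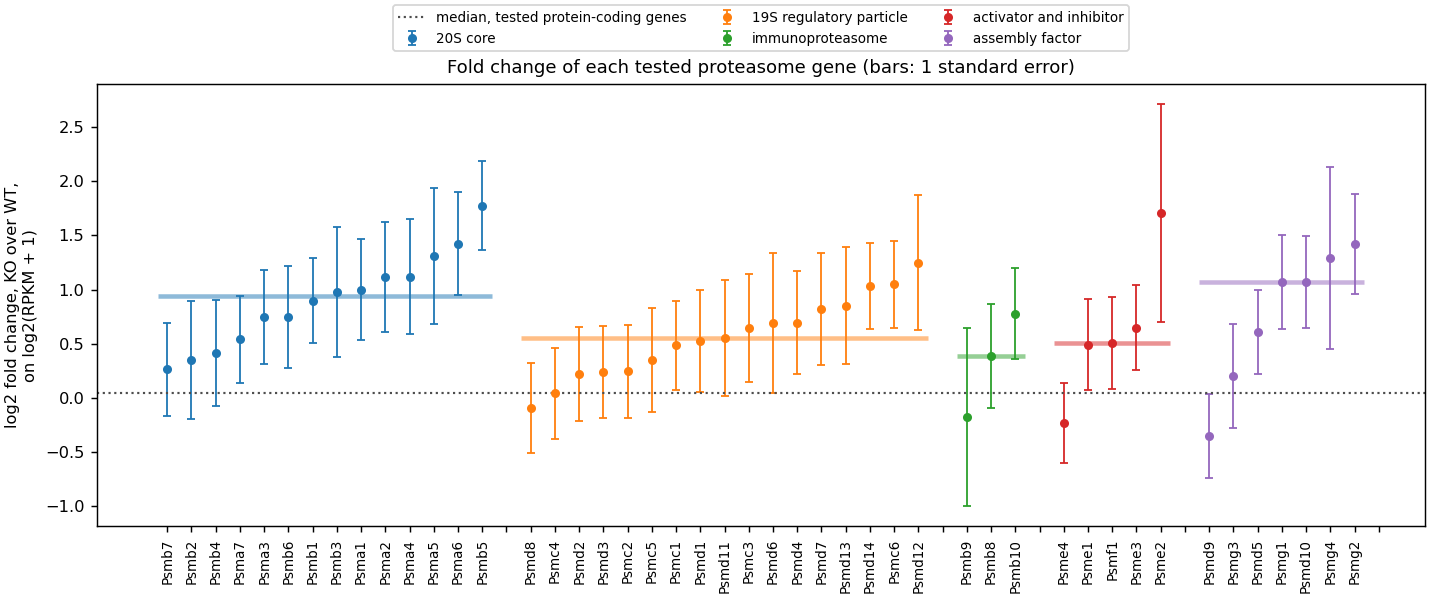
log2 fold change of KO over WT for the 46 tested genes of 5 classes on the log2(RPKM + 1) scale, with 1 standard error as the bar, sorted within a class; thick lines mark class medians and the dotted line the median of all tested protein-coding genes (0.05). Core and assembly genes centre near 1 (medians 0.94 and 1.07), the 19S genes at 0.55, and Psmd9, Psme4, Psmb9 and Psmd8 are the 4 points below 0.

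Of the 17 genes of the 19S particle, 16 had a log2 fold change above 0, with a median of 0.55 and a range from -0.09 for Psmd8 to 1.25 for Psmd12. Both KO libraries lay above both WT libraries in 8 of the 17, against the same 22.4%. The 6 ATPases had a median of 0.42, the 3 other base subunits 0.52 and the 8 lid subunits 0.76. Without WT1 the median of the 17 was 0.14, and 12 of them were above 0.

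Psmd14, the deubiquitinase of the lid (chromosome 2, 61711694 to 61800376, plus strand, 12 exons), was read at 11.2 and 14.3 RPKM in WT and at 24.6 and 29.4 RPKM in KO. The replicates of each group were close and the groups were apart. The groups differed by 1.03 on the log2 scale (standard error 0.39, unadjusted p = 0.0403, adjusted p = 0.672, limma). It was the lowest 19S gene in WT by mean RPKM.

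Psmc6, an ATPase (chromosome 14, 45329788 to 45349705, plus strand, 14 exons), was read at 17.1 and 19.4 RPKM in WT and at 43.2 and 34.7 RPKM in KO. The WT libraries differed little here, and both KO libraries were higher. On the log2 scale the difference was 1.05 (standard error 0.40, unadjusted p = 0.0402, adjusted p = 0.672, limma). Without WT1 the values of Psmd14 and Psmc6 were 0.87 and 0.96. With the trend with coding GC content removed they were 0.69 and 0.71, with unadjusted p of 0.107 and 0.0923 by limma.

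Psmd12, a lid scaffold subunit, had the highest fold change of the class. It was read at 13.1 and 42.5 RPKM in WT and at 52.4 and 64.0 RPKM in KO. The distance between WT1 and WT2 was larger than that from WT2 to KO1. The groups differed by 1.25 on the log2 scale (standard error 0.62, unadjusted p = 0.0927, limma), and by 0.44 without WT1 and 2.06 without WT2. Psmd8, also of the lid, lay at 32.6 and 37.5 RPKM in WT and at 28.1 and 38.1 RPKM in KO, with full overlap. Psmc5, an ATPase with the highest mean RPKM of the class, lay at 47.6 and 82.2 RPKM in WT and at 75.1 and 85.3 RPKM in KO. Its log2 fold change was 0.35 ± 0.48 (standard error), and -0.04 without WT1. Psmc2, an ATPase with the lowest mean RPKM, lay at 11.9 and 14.8 RPKM in WT and at 12.3 and 20.4 RPKM in KO, and its fold change was 0.24 ± 0.43 (log2, standard error) and of -0.10 without KO2.

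The 7 assembly factors were all tested, with a median log2 fold change of 1.07, and 6 were above 0. The dimers of Psmg1 with Psmg2 and of Psmg3 with Psmg4 help to form the alpha ring, and Psmd5, Psmd9 and Psmd10 hold ATPases of the 19S base before it is complete. Most were weakly read, with a median of 46 reads over the 4 libraries.

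Psmg2 was read at 1.91 and 4.88 RPKM in WT (2 and 4 reads) and at 9.52 and 10.7 RPKM in KO (15 and 15 reads). The KO libraries were close together and above both WT libraries. On the log2 scale the difference was 1.42 (standard error 0.46, unadjusted p = 0.0222, adjusted p = 0.66, limma), and limma-voom gave an unadjusted p of 0.079. Psmg1, its partner, was read at 4.94 and 9.48 RPKM in WT and at 16.4 and 14.7 RPKM in KO, also without overlap. The groups differed by 1.07 on the log2 scale (standard error 0.43, unadjusted p = 0.0501, limma), just outside the unadjusted threshold. Psmd10, also known as gankyrin, was read at 9.03 and 14.4 RPKM in WT and at 27.8 and 22.8 RPKM in KO. Its groups did not overlap, with a difference of 1.07 on the log2 scale (standard error 0.42, unadjusted p = 0.0453, adjusted p = 0.672, limma). The unadjusted p was 0.0595 by limma with the same read total over protein-coding genes, 0.0773 with the trend with coding GC content removed, and 0.0646 by limma-voom.

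Psmd5 was at 5.05 and 7.63 RPKM in WT and at 9.45 and 10.6 RPKM in KO, without overlap, and its fold change was 0.61 ± 0.39 (log2, standard error). Psmg4 was at 2.99 and 19.1 RPKM in WT and at 13.9 and 31.2 RPKM in KO, from 1, 5, 7 and 14 reads, and its groups overlapped. Psmg3 was at 1.72 and 1.47 RPKM in WT and at 2.29 and 1.71 RPKM in KO. It shares 55.7% of its coding windows with 1 other gene, Gm26938, whose exons overlap 216 of its coding bases on the same strand. Psmd9, a chaperone of the base, differed in sign from the rest at 6.64 and 8.79 RPKM in WT and 4.87 and 6.83 RPKM in KO. Its groups overlapped, and its log2 fold change was -0.35 ± 0.39 (standard error), or 0.18 with the same read total over all genes. Without WT1 the median of the 7 was 0.35, with 6 above 0.

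Psme1 and Psme2 together form the PA28 cap that interferon induces, Psme3 forms its nuclear form, Psme4 encodes PA200, and Psmf1 encodes the inhibitor PI31. Of the 6 genes of this class 5 were tested, with a median log2 fold change of 0.51, and none had an unadjusted p under 0.05. Psme1 was at 29.3 and 25.0 RPKM in WT and at 45.4 and 32.5 RPKM in KO, without overlap, and its fold change was 0.49 ± 0.42 (log2, standard error). Psme2 was at 0.94 RPKM in WT1, which is 1 read, against 16.8 in WT2, 16.9 in KO1 and 19.7 in KO2. WT2 and the KO libraries were thus alike in Psme2, and its fold change of 1.71 (standard error 1.00, log2) rested on WT1, as it was 0.11 without that library.

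Psme3 was at 12.9 and 9.36 RPKM in WT and at 16.8 and 18.9 RPKM in KO, without overlap, and its fold change was 0.65 ± 0.39 (log2, standard error). Psme4 was at 9.89 and 12.2 RPKM in WT and at 8.94 and 9.45 RPKM in KO, and is the member whose KO libraries both lay below WT. The log2 fold change of Psme4 was -0.23 ± 0.37 (standard error), or 0.33 with the same read total over all genes. Psmf1 was at 2.06 and 3.95 RPKM in WT and at 3.94 and 5.19 RPKM in KO, with overlap. Psme2b, which shares 81.0% of its coding windows with other genes, Psme2 among them, had 1 read, in KO2, and was not tested. Psmc3ip, matched by name only, was at 0.91 and 3.5 RPKM in WT and at 2.43 and 4.09 RPKM in KO, and its fold change was 0.51 ± 0.56 (log2, standard error).

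The inducible catalytic subunits had no common direction. Psmb8, the counterpart of Psmb5 (chromosome 17, 34197721 to 34201454, plus strand), was at 20.6 and 9.42 RPKM in WT and at 19.2 and 17.9 RPKM in KO, with both KO values between the WT values. Psmb9, the counterpart of Psmb6 (chromosome 17, 34181987 to 34187764, minus strand), was at 0.45 and 5.22 RPKM in WT and at 0.9 and 2.71 RPKM in KO, from 21 reads in all. Psmb10, the counterpart of Psmb7 (chromosome 8, 105935735 to 105938444, minus strand), was at 8.76 and 9.96 RPKM in WT and at 21.3 and 13.1 RPKM in KO, without overlap.

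Their log2 fold changes were 0.38 for Psmb8, -0.18 for Psmb9 and 0.78 for Psmb10, with standard errors of 0.48, 0.82 and 0.42. The values of Psmb8 and Psmb9 without WT2 were -0.14 and 0.87. For Psmb10 the value was 0.44 without KO1 and 1.11 without KO2. Psmb9 shares 212 exon bases with Tap1 on the opposite strand, and the strand setting of the counting is not given in the sources used here. Among 16 genes of the interferon response and antigen presentation, 11 were above 0, with a median log2 fold change of 0.27, and 3 were higher at an unadjusted p under 0.05, against 2.94% of the tested protein-coding genes. These were Ifit3 (1.37), Ifit1 (1.27) and Gbp2 (1.22), all interferon-induced genes. The lowest was Irf7, an interferon regulatory factor, at -0.67. Tap1 and Tap2, the transporter that feeds peptides to MHC class I, were at 0.64 and -0.16.

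**Figure D4:**
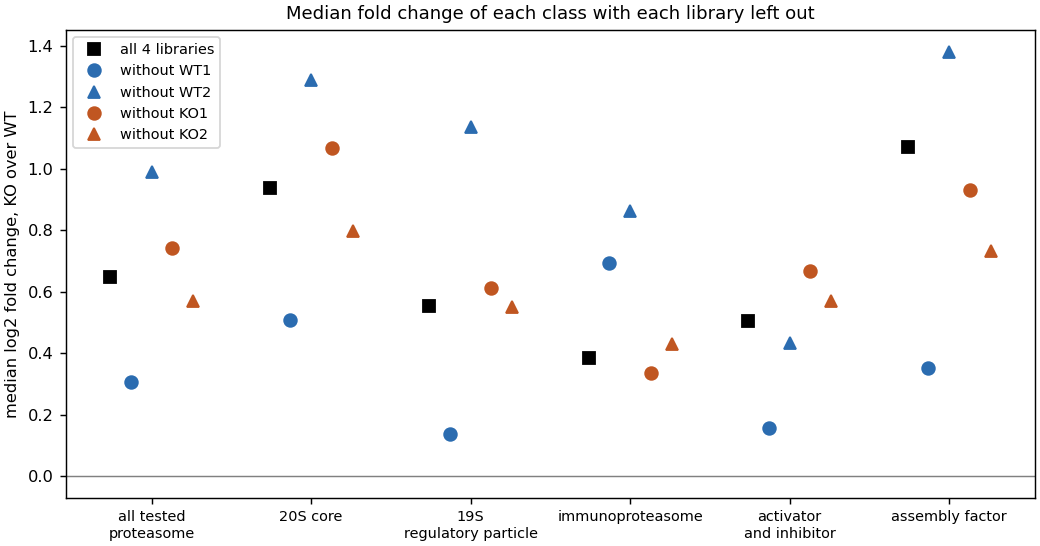
Median log2 fold change of KO over WT for all tested members and 5 classes, with all 4 libraries (black squares) and with each library left out (WT blue, KO orange; circles for replicate 1, triangles for replicate 2). Leaving out WT1 gives the lowest median for every class but the immunoproteasome (0.31 for all members, 0.14 for the 19S genes), and all medians stay above 0.

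The core contains each subunit in equal number, so the levels of its genes were set side by side per kilobase of coding sequence, as reads scaled by coding length in kilobases and by the same library size. In WT the 14 core genes ranged from 2.39 ± 0.41 (SD, n = 2) for Psmb5 to 156 ± 48.7 for Psmb4, with a median of 82.4. After Psmb4 came Psmb2 at 133 ± 71.1, Psmb6 at 121 ± 26.5, Psma7 at 116 ± 6.46, Psma6 at 104 ± 32.3, Psmb1 at 100.2 ± 8.23 and Psma1 at 95.5 ± 39.9, and these neighbours did not differ beyond their spread. Psmb7 followed at 69.4 ± 24.7. Lower still were Psma4 at 49.0 ± 30.4, Psma3 at 46.8 ± 20.2, Psmb3 at 42.2 ± 33.0, Psma2 at 40.5 ± 23.9 and Psma5 at 26.3 ± 20.95, again within their spread. Psmb5 lay below Psma5 in each of the 4 libraries.

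In KO the core ranged from 11.2 ± 4.04 (SD, n = 2) for Psmb5 to 274 ± 22.5 for Psma6, with a median of 130 on the same per-coding-kilobase scale. By mean level Psma6 thus stood below Psmb4, Psmb2, Psmb6 and Psma7 in WT, within their spread and with Psma6 above Psma7 in WT2. In KO it stood first. The 17 genes of the 19S particle spanned a narrower range in WT, from 38.6 ± 6.7 for Psmd14 to 101 ± 10.1 for Psmd8, a ratio of 2.62 between highest and lowest against 65.3 in the core. In KO these 2 ratios were 2.74 and 24.5. The core ratios rest on Psmb5, and from the next lowest gene, Psma5, they were 5.93 in WT and 4.75 in KO.

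The core genes with low levels were largely those that share sequence with other genes. Of the core genes, 5 had more than 50% of their 28-base coding windows in another gene's transcripts as well, and the closest copy of each is annotated as a pseudogene. These were Psma3 (92.4%), Psma5 (90.4%), Psmb5 (86.7%), Psmb3 (85.9%) and Psma4 (63.0%). Their median level in WT was 42.2 scaled reads per coding kilobase, against 104 for the other 9, and in KO the medians were 74.1 and 187. Over the 14 genes, Spearman's rho between the shared percentage and the level was -0.85 in WT and -0.73 in KO, given as a description across genes that come from the same libraries. How the authors' counting treated reads with several matches is not given in the sources used here, and its part in these levels was not tested. The fold changes on log2(RPKM + 1) had a median of 1.12 in the 5 genes and of 0.75 in the other 9.

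**Figure D5:**
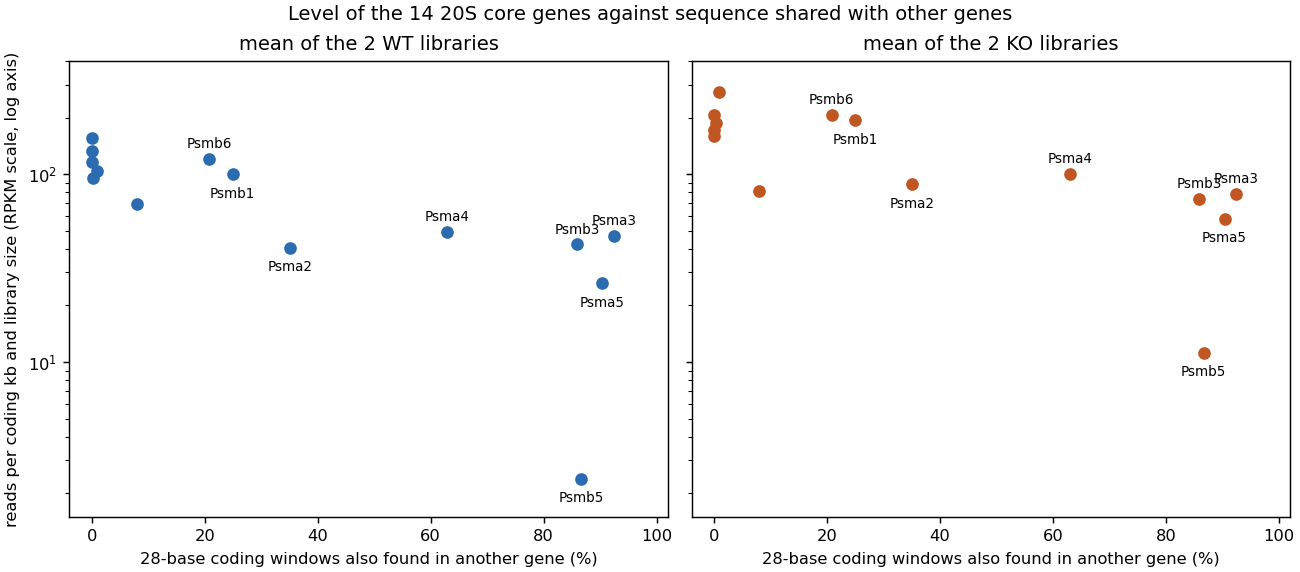
Level of each of the 14 core genes (scaled reads per coding kilobase, log axis, mean of 2 libraries; WT left, KO right) against the percentage of its 28-base coding windows that occur in another gene. In WT the 3 genes with no shared windows are among the 4 highest points, the 5 genes above 50% have a lower median than the other 9 in both groups (42.2 against 104 in WT, 74.1 against 187 in KO), and Psmb5 (86.7%) is the lowest point in both.

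For the catalytic subunits and their inducible counterparts, the WT levels per coding kilobase were 121 ± 26.5 (SD, n = 2) for Psmb6 and 15.8 ± 18.8 for Psmb9. Psmb7 was at 69.4 ± 24.7 and Psmb10 at 19.5 ± 1.77. In KO, Psmb6 was at 208 ± 64.4 and Psmb9 at 10.1 ± 7.1, and Psmb7 was at 81.8 ± 8.68 and Psmb10 at 35.8 ± 12.2. The standard subunit was thus the higher in both pairs and both groups. In the remaining pair the order was the reverse, with Psmb8 at 61.3 ± 32.3 in WT and 75.9 ± 3.74 in KO, but the level of Psmb5 is that of a gene with 86.7% shared windows.

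Of the 50 genes, 7 encode at least 3 prolines in a row in the longest annotated coding sequence (GENCODE M21, GRCm38). Their sequences are shown because such stretches are the sites for which eIF5A is known. Capitals mark the codons of the run of prolines, with up to 3 codons on either side, on the coding strand.
Psmc5 (chr11:106262476-106262502, plus strand): attgaattcCCACCCCCCaacgaggag
Psmb6 (chr11:70527559-70527576, plus strand): gccacgttgCCACCTCCC
Psmd8 (chr7:29180541-29180567, minus strand): gtggtagctCCGCCTCCAgttttgggc
Psmd3, first stretch (chr11:98682769-98682795, plus strand): aaggcaaagCCGCCGCCGggaggggaa
Psmd3, second stretch (chr11:98682793-98682822, plus strand): gaacaagaaCCGCCGCCACCGgccccccag
Psme2 (chr14:55589622-55589648, minus strand): atcccagatCCTCCACCCaaggatgac
Psmf1 (chr2:151718649-151718675, minus strand): gaccatcttCCCCCACCGggctacgat

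Psme2b carries the same codons as Psme2. In Psmb6 the stretch ends the protein, and Psmd3 has 2 stretches, of 3 and 4 prolines. Of the 7 genes 6 were tested, and their log2 fold changes ran from -0.09 for Psmd8 to 1.71 for Psme2, with 5 above 0, a median of 0.43 and none at an unadjusted p under 0.05. The 41 tested members without such a stretch had a median of 0.69, with 38 above 0 and 6 at that threshold. Among the tested protein-coding genes 53.1% were above 0 and 2.94% were higher at that threshold, and with 6 genes the count of 0 is near that background. These are gene totals, and positions of footprints along a gene were not used here.

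In mammalian cells proteasome genes are known to be induced together by Nfe2l1 when the proteasome is impaired, through antioxidant response elements. RefSeq promoters (GRCm38.p6, 250 bases before to 50 after the start) were found for 42 members. The core of the element, TGACNNNGC on either strand, occurred in 6 of them (14.3%) and in 13.99% of all genes. These were Psmb5, Psmb6, Psmc6, Psmd12, Psmd9 and Psme4. The CCAAT box, also on either strand, occurred in 35.7% of the members and in 41.1% of all genes, and GAAA followed by any 2 bases and GAAA, the core of the interferon-stimulated response element, in 11.9% against 3.99%. The members with the latter were Psmb3, Psmd4, Psmd9, Psme1 and Psmg4.

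The 3 promoters below belong to members at an unadjusted p under 0.05 or with a catalytic site, and hold the antioxidant core, shown in capitals.
Psmb5 (chr14:54617946-54618245, minus strand): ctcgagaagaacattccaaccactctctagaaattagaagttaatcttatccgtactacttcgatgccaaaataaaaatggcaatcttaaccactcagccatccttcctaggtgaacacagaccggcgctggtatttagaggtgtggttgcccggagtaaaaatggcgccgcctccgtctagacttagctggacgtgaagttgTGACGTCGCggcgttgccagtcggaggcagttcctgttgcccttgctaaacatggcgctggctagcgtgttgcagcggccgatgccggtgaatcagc
Psmb6 (chr11:70525107-70525406, plus strand): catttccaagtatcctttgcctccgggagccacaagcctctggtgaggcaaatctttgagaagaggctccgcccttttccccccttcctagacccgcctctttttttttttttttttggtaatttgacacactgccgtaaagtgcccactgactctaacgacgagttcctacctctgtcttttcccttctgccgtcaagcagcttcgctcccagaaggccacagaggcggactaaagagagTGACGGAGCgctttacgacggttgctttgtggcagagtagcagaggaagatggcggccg
Psmc6 (chr14:45329574-45329873, plus strand): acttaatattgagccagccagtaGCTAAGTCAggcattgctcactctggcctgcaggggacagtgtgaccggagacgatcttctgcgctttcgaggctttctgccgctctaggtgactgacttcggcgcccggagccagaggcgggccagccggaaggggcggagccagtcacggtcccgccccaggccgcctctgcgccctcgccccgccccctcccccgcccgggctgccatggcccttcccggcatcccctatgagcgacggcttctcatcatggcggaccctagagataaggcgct

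The match begins 47 bases before the start in Psmb5, 9 before it in Psmb6 and 227 before it in Psmc6, where it lies on the opposite strand. The log2 fold changes of the 6 genes with a match ran from -0.35 in Psmd9 to 1.77 in Psmb5, the latter from 17 reads in all. The part of the element in these values was not tested.

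Outside the name rule, 30 genes of the proteasome pathway were summarised, and 29 were tested. Their median log2 fold change was 0.33, with 21 above 0, none at an adjusted p under 0.05 by limma, 1 higher and 1 lower at an unadjusted p under 0.05. Among the tested protein-coding genes 2.94% were higher and 3.04% lower, so these counts are near the background. The remaining subunits and the assembly factor Pomp, which completes the core, did not pass either threshold. Sem1 was at 0.33, Adrm1, the ubiquitin receptor also known as Rpn13, at -0.19, and Pomp at 0.58. Of the factors that control proteasome genes, Nfe2l2 was at 24.0 and 28.5 RPKM in WT and at 62.2 and 45.0 RPKM in KO. On the log2 scale the difference was 0.99 (standard error 0.42, unadjusted p = 0.0596, limma). Nfe2l1 was at 26.8 and 17.6 RPKM in WT and at 18.2 and 13.4 RPKM in KO, and its fold change was -0.45 ± 0.43 (log2, standard error), and Ddi2, the protease that releases it, was at -0.26.

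Uba6, an enzyme that activates ubiquitin, was the gene higher at an unadjusted p under 0.05, with a log2 fold change of 0.99. Uba1, the main activating enzyme, was at 51.3 and 60.3 RPKM in WT and at 107 and 83.5 RPKM in KO. Rps27a and Ubb, which encode ubiquitin, were low in WT1, at 10.1 and 2.97 RPKM against 44.1 and 34.2 RPKM in WT2. The shuttle factor Ubqln4, which carries ubiquitin conjugates to the proteasome, was at 12.8 and 12.3 RPKM in WT and at 4.52 and 4.78 RPKM in KO, and was the gene lower at an unadjusted p under 0.05, with a log2 fold change of -1.26. The associated proteins, such as the deubiquitinases Usp14 and Uchl5, had a median of 0.44 over 9 genes. Of the muscle ubiquitin ligases, Fbxo32 was at 0.33, and Trim63 was listed at 0 in all libraries but KO2 and was not tested.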

How the data were processed

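Ribosome-protected fragments were sequenced from 2 WT and 2 eIF5A-KO libraries. Per the study's methods, the authors removed rRNA and tRNA reads, aligned with Tophat2 to an Ensembl annotation (mm10 per the labels) and counted with HTSeq; strand and multiple matches are not stated. The deposited values were RPKM. Whole reads were recovered from them (100% of values within 0.001 of a whole read); the library size divided by equalled the median-of-ratios size factor over 10490 genes times the geometric mean of the totals. Tested genes had a mean of at least 1 RPKM. Limma 3.58.1 (R 4.3.3, lmFit, eBayes with trend) was run on log2(RPKM + 1) with Benjamini-Hochberg adjustment over 11363 genes. It was also run on simulated counts drawn independently for each gene and library. These hold no difference shared by many genes of a library, unlike the members in WT1 and WT2.

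Of the gene IDs, 99.8% were in GENCODE M21 (GRCm38), which gave coding lengths and 28-base windows. The members, lists and tests were chosen with earlier results of these data known. Named genes were the catalytic and inducible subunits, the extremes of level and fold change in each class, every member at an unadjusted p under 0.05, all tested assembly factors and all tested activators. Alternatives were another pseudocount (0.1), filters (every gene above 0; at least 5 RPKM), read totals over protein-coding or all genes, limma-voom on the recovered reads, a replicate block, removal of the trend with coding GC content, and leaving out each library. The median tested member had 210 reads in all, and 95% intervals cover counting error only. Some genes of the pathway list are not reported here and were left out of its counts.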

Additional observations from a re-analysis of the deposited data

How the results depend on the processing

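No alternative gave a member at an adjusted p under 0.05 by limma or limma-voom (smallest 0.22), and none gave a member lower at an unadjusted p under 0.05. The number higher at an unadjusted p under 0.05, 6 with all libraries, was 3 with the same read total over protein-coding genes, 28 with the same read total over all genes, and between 0 and 20 with 1 library left out; of all tested genes, 2.86% were higher with all libraries, and 2.10%, 14.8% and between 1.80% and 7.12% in these fits. The same read total over all genes also moved the median of all 11363 genes to 0.47 and the medians of the members to 1.25 (all), 1.52 (core), 1.14 (19S), 0.96 (immunoproteasome), 1.09 (activators and inhibitor) and 1.63 (assembly), which is 0.78, 1.05, 0.67, 0.49, 0.62 and 1.16 above that median. It turned Psmb9 to 0.23, Psmd8 to 0.51, Psmd9 to 0.18 and Psme4 to 0.33.

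With 1 library left out, the medians ran from 0.31 to 0.99 (all), 0.51 to 1.29 (core), 0.14 to 1.14 (19S), 0.34 to 0.86 (immunoproteasome), 0.16 to 0.67 (activators and inhibitor) and 0.35 to 1.38 (assembly). The fold changes that turned sign ran from -0.087 to 0.61 (Psmb7), -0.14 to 0.91 (Psmb8), -1.23 to 0.87 (Psmb9), -0.10 to 0.59 (Psmc2), -0.11 to 1.13 (Psmc3ip), -0.038 to 0.74 (Psmc5) and -0.30 to 0.12 (Psmd8). The remaining 19 of 26 named genes kept their sign there. Where a group is left with 1 library, that library is assumed to vary like the others.

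With the replicate number as a block, 5 members were higher at an unadjusted p under 0.05 (3 of the 6, with Psma2 and Psmg4 gained and Psmd14 at 0.0504, Psmc6 at 0.057 and Psmd10 at 0.0603 lost; 2.80% of all tested genes were higher) and no adjusted call changed; the deviations of the libraries numbered 1 had a correlation of 0.07 over 9877 protein-coding genes, and the libraries share only a number. The same read total over protein-coding genes left Psmd14, Psmc6 and Psmd10 at 0.0593, 0.0548 and 0.0595. The GC trend removed gave 4 members, 3 of the 6 and Psmb10 (with 3.30% of the 9869 tested genes higher), and a median of 0.52; limma-voom gave 9 (with 3.74% of all tested genes higher), 3 of the 6 among them, and lost Psmb5, Psmd10 and Psmg2. The cause of these changes was not tested.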
